A study of Mus musculus with 8 samples.

Results

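The 9 genes described here encode subunits of the voltage-gated potassium (Kv) channels that repolarize the heart: Kcna5, Kcna4, Kcnd2, Kcnd3, Kcnip2, Kcnq1, Kcnh2, Kcne1 and Kcnv2. They were taken by name from the 39056 genes of the count table, and all 9 were among the 14796 genes that had enough reads to be tested. RNA-seq libraries were made from heart samples of 4 HVCN1 null mice, which lack the voltage-gated proton channel HVCN1 (Hv1), and of 4 WT mice, with 1 library per heart. All 8 mice were male and 3 months old, and the WT mice had the C57BL/6 background. Hearts 1 to 4 were HVCN1 null and hearts 5 to 8 were WT, by the running number in their labels. Heart RNA comes from many cell types, so fewer cells of a type and less RNA per cell cannot be told apart.

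A cardiac action potential ends when potassium leaves the myocyte through channels that open on depolarization. Channels of the Kv1 and Kv4 families (Kcna5, Kcna4, Kcnd2, Kcnd3) carry the transient and the ultrarapid currents that dominate repolarization in the mouse ventricle, and Kcnip2 (KChIP2) is the cytoplasmic partner of Kv4 channels. Kcnq1 with its small partner Kcne1, and Kcnh2 (ERG1), carry the slow and the rapid delayed rectifier currents. Kcnv2 (Kv8.2) is silent alone and forms channels together with other Kv subunits.

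A shared feature of these channels is the selectivity filter, the short loop of the pore that lets potassium pass. The coding stretch of the filter is shown for the 7 members that line a pore, because each of them holds it. The rest of the genes was not compared. The capitals mark the 15 bases of the filter, and 15 coding bases stand on each side. They were read from the GENCODE M21 transcripts of GRCm38, in frame in the longest coding sequence of each gene as a run of codons of the conserved filter, in a form with tyrosine or in one with phenylalanine, and each gene held 1 match.

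Kcna5: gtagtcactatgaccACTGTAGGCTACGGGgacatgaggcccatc
Kcna4: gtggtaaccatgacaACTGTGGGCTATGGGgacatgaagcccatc
Kcnd2: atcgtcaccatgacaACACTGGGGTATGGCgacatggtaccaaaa
Kcnd3: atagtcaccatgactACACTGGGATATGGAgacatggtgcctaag
Kcnq1: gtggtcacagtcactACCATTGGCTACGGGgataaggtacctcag
Kcnh2: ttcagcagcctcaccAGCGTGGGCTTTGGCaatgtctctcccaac
Kcnv2: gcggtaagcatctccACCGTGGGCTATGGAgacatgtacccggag

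The Kcna5 stretch lies in the coding part of its single exon, on the minus strand at chr6:126533730-126533774. Kcna5 and Kcna4 had 38 of the 45 printed bases in common, and so did Kcnd2 and Kcnd3. Kcnh2, the one match to the phenylalanine form, shared 21 to 25 of the 45 bases with the others. Kcnip2 and Kcne1 held no match, and neither lines the pore.

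Library depth ran from 25851255 to 38874640 counts. Values are CPM (counts scaled to the size of a library, after TMM scaling), and each log2 fold change sets HVCN1 null against WT. Log2 fold changes above 0 are higher without HVCN1. The standard error (SE) was derived from edgeR's quasi-likelihood test, as the absolute log2 fold change over the square root of the F statistic. A gene was called a DEG at a Benjamini-Hochberg adjusted p under 0.05 over all tested genes. Hvcn1 itself summed to 16 counts in the HVCN1 null group and 318 counts in the WT group. The hearts differed in atrial tissue. Myl7, the atrial myosin light chain, was between 578 and 1175 CPM in HVCN1 null hearts 2 and 3 and WT hearts 5 and 7, and between 0.167 and 33.7 CPM in the other 4. The former are called the atrial-rich hearts, 2 of each genotype, and results are given with and without them. They were not alike in every atrial marker. Bmp10 was 421 and 569 CPM in HVCN1 null heart 2 and WT heart 7. In HVCN1 null heart 3 and WT heart 5 it was 0.0379 and 0.152 CPM. Each difference in mean CPM was put to a two-sided exact permutation test as well. With 70 ways to assign the hearts, its smallest p is 0.0286, and every gene whose groups do not overlap reaches it. Its p-values were not adjusted.

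None of the 9 genes was a DEG (0 of 9, while 1.14% of all tested genes were). Kcna5 and Kcnip2 (2 of 9) reached an unadjusted edgeR p under 0.05, as did 11.0% of all tested genes. These were also the 2 members whose HVCN1 null values all lay above the WT values, which held for 3.88% of tested genes, and no member lay wholly below (7.14% did not overlap in either direction). The 9 log2 fold changes ran from -0.27 to 0.66 with a median of 0.14, beside a median of -0.01 over all tested genes, with 7 genes above 0 and 2 below.

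**Figure D1:**
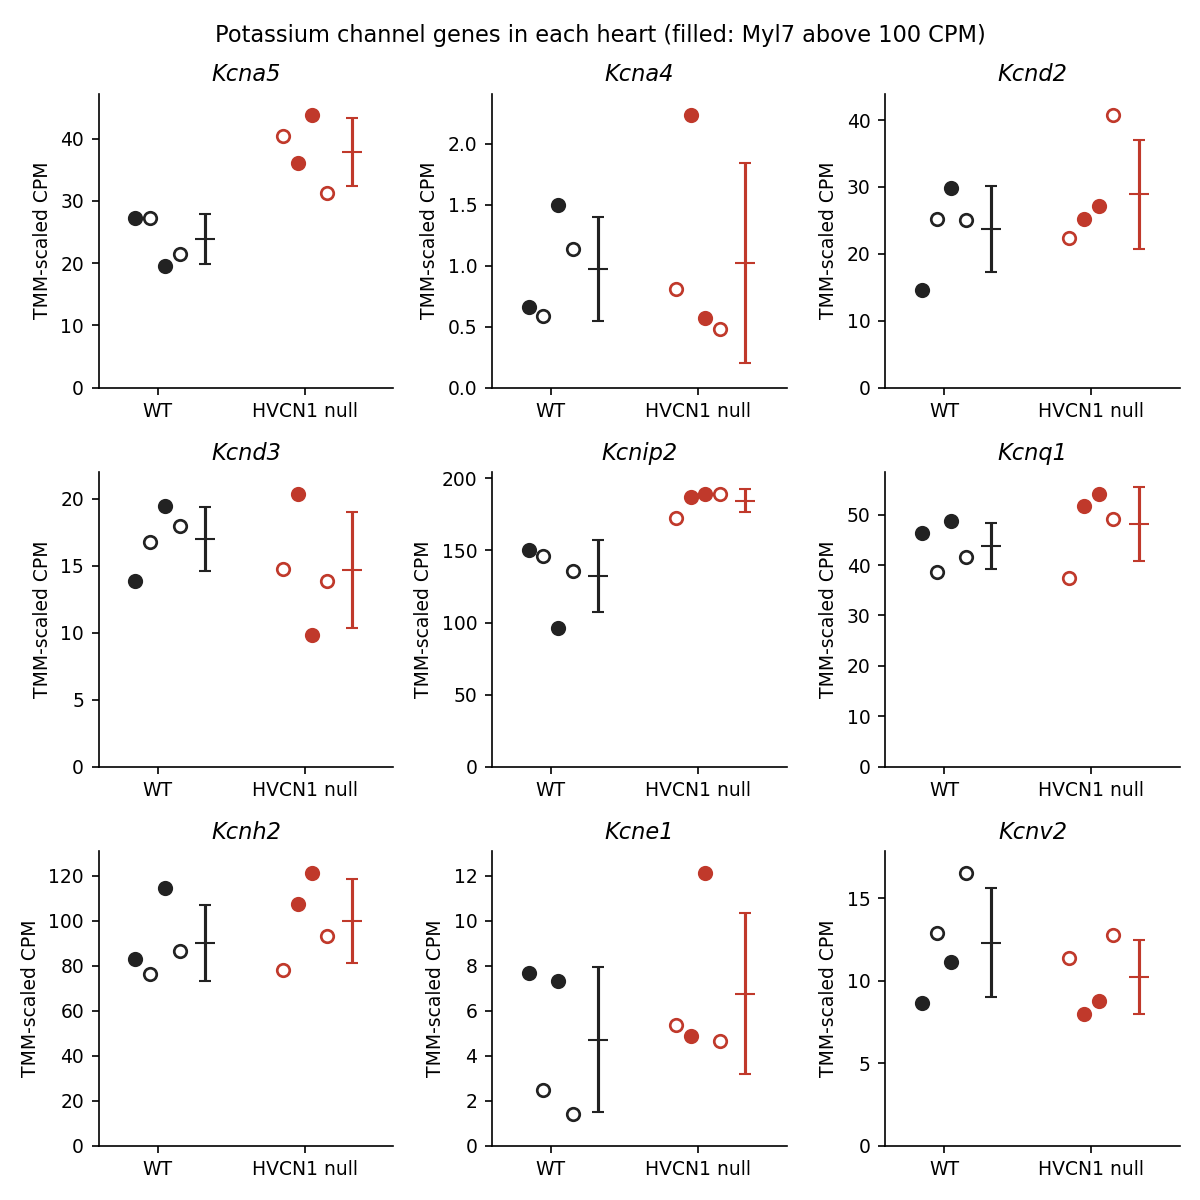
TMM-scaled CPM of the 9 genes in each heart (points; filled for hearts with Myl7 above 100 CPM), with the mean and SD of the 4 hearts of each genotype beside them. Only the Kcna5 and Kcnip2 panels show 4 HVCN1 null hearts above all 4 WT hearts.

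Kcna5 encodes Kv1.5, the channel of the ultrarapid delayed rectifier current (ENSMUSG00000045534, chr6:126532551-126535412 in GRCm38, minus strand). HVCN1 null hearts 1 to 4 had 40.5, 36.1, 43.8 and 31.2 CPM, whereas WT hearts 5 to 8 had 27.3, 27.3, 19.6 and 21.5 CPM. The lowest HVCN1 null heart was above the highest WT heart. The means were 37.9 ± 5.45 and 23.9 ± 4.00 (SD, n = 4 each). This is 1.58-fold, with a log2 fold change of 0.66 (SE 0.14). The adjusted p was 0.0533 (edgeR quasi-likelihood test), which misses the threshold. The permutation test gave the smallest p it can, 0.0286 (unadjusted), which restates the lack of overlap. Kcna5 passed the threshold with RLE scaling (edgeR adjusted p = 0.0467, where 1.18% of genes were DEGs), with no filter on low counts (edgeR, 0.0229, 0.927% of genes), in edgeR's exact test (0.00163, 2.48%), in DESeq2 (6.25e-04, 3.15%) and without HVCN1 null heart 4 (edgeR, 0.0347, 1.01%). Its log2 fold change lay between 0.57 and 0.76 in all 19 alternatives, with adjusted p from 6.25e-04 to 0.586.

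Kv1.5 is also made by smooth muscle, and 5 smooth muscle markers were compared in the same hearts. All 5 genes of the list (Myh11, Acta2, Tagln, Cnn1, Smtn) had a log2 fold change above 0. Of the 5, 1 was a DEG, Acta2 (smooth muscle actin, 1.32, edgeR adjusted p = 0.0466), while 1.14% of all tested genes were. The summed level of the 5 was 529 to 825 CPM in HVCN1 null hearts and 397 to 482 CPM in WT hearts, without overlap. That separation rested on Acta2: the sum of the other 4, taken after the values were seen, was 343 to 468 CPM in HVCN1 null hearts and 312 to 358 CPM in WT hearts, with overlap. Acta2 and Smtn lay wholly above WT in the HVCN1 null hearts, as did 3.88% of all tested genes. Smtn had 252 to 312 CPM in HVCN1 null hearts and 201 to 244 CPM in WT hearts. Its log2 fold change was 0.32 (SE 0.11, edgeR adjusted p = 0.260). Myh11, the defining myosin, overlapped between the groups, at 78.4 ± 27.2 and 63.4 ± 6.94 CPM (SD, n = 4 each), as did Tagln (log2 fold change 0.08, SE 0.24) and Cnn1 (0.22, SE 0.37). Smooth muscle was 1 of several cell type marker lists examined, and no other list held a DEG. The median log2 fold change was 0.30 for smooth muscle and 0.31 for the conduction system. It was below 0 for the atrial, ventricular, cardiomyocyte, neuron, endothelial, fibroblast, macrophage and skeletal muscle lists. The part of smooth muscle in the Kcna5 difference was not tested.

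Kcnip2, the Kv4 partner (ENSMUSG00000025221, chr19:45791839-45816061, minus strand), was the most abundant of the 9. The HVCN1 null hearts had 173, 187, 189 and 189 CPM and the WT hearts 151, 146, 96.3 and 136 CPM. WT heart 7 was the lowest, and the groups did not overlap. The means of 185 ± 7.86 and 132 ± 24.8 gave a log2 fold change of 0.47 (SE 0.13), with an adjusted p of 0.162 (edgeR quasi-likelihood). The unadjusted exact permutation p of 0.0286 again restates the lack of overlap. Of 19 alternatives, DESeq2 alone called Kcnip2 (adjusted p = 0.0147), and in the other 18 the adjusted p ran from 0.0724 to 0.843.

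Kcna5 and Kcnip2 were the 2 members whose groups did not overlap, so the 250 bases before their RefSeq starts (GRCm38.p6) are printed. Capitals mark matches, on either strand, to 5 short motifs: TATAAA as in many core promoters, GGGCGG as bound by Sp1, GATAAG as bound by the Gata family, CATTCC as bound by the TEAD family and ACANNTGT as bound by the Iroquois family. No match shared bases with another. RefSeq promoter sequences were at hand for 6 of the 9 members.

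Kcna5: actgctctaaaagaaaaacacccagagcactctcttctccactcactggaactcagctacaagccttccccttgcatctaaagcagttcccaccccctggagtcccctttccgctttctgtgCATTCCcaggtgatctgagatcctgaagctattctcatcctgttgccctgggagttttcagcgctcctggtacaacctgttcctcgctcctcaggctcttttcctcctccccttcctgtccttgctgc
Kcnip2: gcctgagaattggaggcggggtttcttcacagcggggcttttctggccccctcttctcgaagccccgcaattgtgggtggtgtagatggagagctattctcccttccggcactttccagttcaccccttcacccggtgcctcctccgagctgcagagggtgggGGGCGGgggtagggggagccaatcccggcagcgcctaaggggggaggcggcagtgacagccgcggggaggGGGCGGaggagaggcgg

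The Kcna5 window lies at chr6:126535556-126535805 and the Kcnip2 window at chr19:45816064-45816313, both on the minus strand. Kcna5 held 1 CATTCC, and 12.6% of the 32851 promoters of the same length held at least 1. Kcnip2 held 2 GGGCGG, and 32.7% of the promoters held at least 1. The Kcnip2 window was 66.8% GC and the Kcna5 window 53.2%, beside a median of 52.4% over all promoters. The windows shared none of the 5 motifs. A match is a string of letters here, and binding was not measured.

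The Kv4 pore genes that Kcnip2 joins did not separate the genotypes. Kcnd2 (Kv4.2) was 22.4, 25.2, 27.2 and 40.7 CPM in HVCN1 null hearts and 14.6, 25.2, 29.9 and 25.1 CPM in WT hearts. The range was set by HVCN1 null heart 4 at the top and WT heart 5 at the bottom, and the other 6 hearts interleaved (log2 fold change 0.28, SE 0.23, edgeR adjusted p = 0.789). Kcnd3 (Kv4.3) was 14.7, 20.3, 9.81 and 13.8 CPM in HVCN1 null hearts and 13.9, 16.8, 19.5 and 18.0 CPM in WT hearts, with overlapping groups (-0.22, SE 0.19, edgeR adjusted p = 0.812). Kcna4 (Kv1.4), which carries the slowly recovering transient current, was scarce, at 15 to 83 counts per heart. HVCN1 null hearts had 0.812, 2.23, 0.568 and 0.482 CPM, and WT hearts 0.659, 0.590, 1.49 and 1.14 CPM. HVCN1 null heart 2 stood above the rest, and without it the log2 fold change went from 0.08 (SE 0.50) to -0.65.

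The delayed rectifier genes lay closer together. Kcnq1 (Kv7.1) was 37.5, 51.8, 54.0 and 49.2 CPM in HVCN1 null hearts and 46.3, 38.6, 48.7 and 41.6 CPM in WT hearts (log2 fold change 0.13, SE 0.13, edgeR adjusted p = 0.835). Kcnh2 was 78.1, 107, 121 and 93.1 CPM against 83.0, 76.2, 115 and 86.6 CPM, a log2 fold change of 0.14 (SE 0.16, edgeR adjusted p = 0.866). For both genes the groups overlapped and the difference was about as large as its SE. Kcnq1 shares 121 of its 4093 exon bases with the antisense gene Kcnq1ot1, and Kcnd3 shares 165 of 9587 with Kcnd3os. Whether the counting used strand is not given in the sources used here, so these reads cannot be assigned.

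Kcne1 (minK), the small partner of Kcnq1, spread widely among the hearts. It was 5.38, 4.87, 12.1 and 4.68 CPM in HVCN1 null hearts and 7.68, 2.48, 7.31 and 1.41 CPM in WT hearts. HVCN1 null heart 3 was far above its group, and the 2 lowest values were those of the WT hearts poor in Myl7. The log2 fold change was 0.49 (SE 0.51, edgeR adjusted p = 0.848). It was 0.057 without HVCN1 null heart 3 and 0.83 without WT heart 5, the lowest and highest values with 1 heart left out. In the 4 hearts that were not atrial-rich it was 1.37 (SE 0.30, edgeR adjusted p = 0.176), and in the 4 atrial-rich hearts 0.16 (SE 0.40). The difference between these subsets was not tested.

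Kcnv2 was 11.4, 7.96, 8.75 and 12.8 CPM in HVCN1 null hearts and 8.64, 12.9, 11.1 and 16.5 CPM in WT hearts (log2 fold change -0.27, SE 0.21, edgeR adjusted p = 0.766). The genotypes overlapped, and the hearts separated by Myl7 instead. The 4 atrial-rich hearts had 7.96 to 11.1 CPM of Kcnv2 and the other 4 had 11.4 to 16.5 CPM. Kcnv2 was the 1 member with every atrial-rich heart below every other heart, as were 1.98% of tested genes, and no member had every atrial-rich heart above (3.59% of tested genes). Mean Kcne1 was 2.29-fold higher in atrial-rich hearts, although HVCN1 null heart 2 overlapped with the others.

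**Figure D2:**
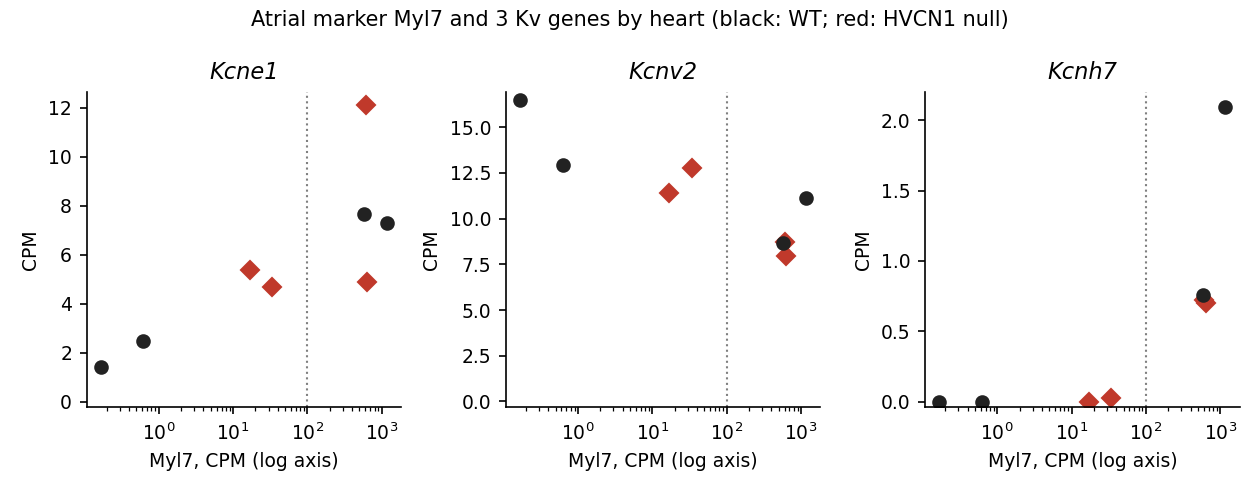
CPM of Kcne1, Kcnv2 and Kcnh7 (vertical axes) against CPM of the atrial marker Myl7 (horizontal log axis) in each of the 8 hearts, with a dotted line at 100 CPM. Kcnv2 is at 11.1 CPM or less to the right of the line and at 11.4 CPM or more to the left.

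Leaving out the atrial-rich hearts kept the sign of 8 of the 9 log2 fold changes, the exception being Kcna4 (-0.41, SE 0.50). Kcna5 was 0.57 (SE 0.17, edgeR adjusted p = 0.339) without these hearts and 0.76 (SE 0.20, 0.586) within them, and Kcnip2 was 0.37 (SE 0.13, 0.408) and 0.60 (SE 0.23, 0.843). Both genes were higher in each HVCN1 null heart in either subset. This had to be so, because neither gene overlapped in the full set of hearts, and it adds nothing to that result. With 2 hearts a group, a lack of overlap is common. In the hearts that were not atrial-rich, 39.6% of tested genes did not overlap, and 5 members did not. In the atrial-rich hearts, 31.5% of tested genes did not overlap, and 3 members did not. The atrial markers themselves did not separate the genotypes. Of the 7 tested all 7 had a log2 fold change below 0 and none was a DEG, and the summed level overlapped (365 to 4791 CPM in HVCN1 null and 139 to 8672 CPM in WT hearts). With atrial-rich or not as a block, the adjusted p of Kcna5 was 0.0543 and that of Kcnip2 0.144 (edgeR).

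**Figure D3:**
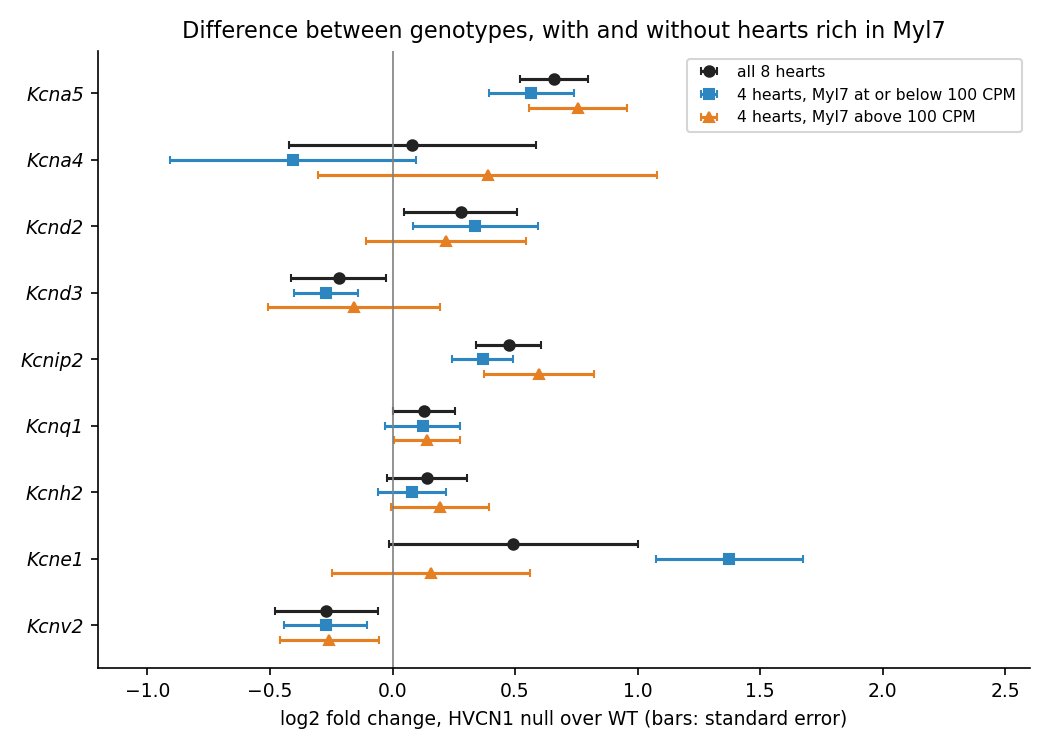
Log2 fold change of HVCN1 null over WT (horizontal axis) for the 9 genes in all 8 hearts, in the 4 hearts with Myl7 at or below 100 CPM and in the 4 above it, with bars of 1 standard error. Kcna5 and Kcnip2 lie to the right of 0 in all 3 sets, and Kcne1 is at 1.37 in one subset and 0.16 in the other.

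Divided by exon length, the levels in WT hearts ranked Kcnip2 first (38.1 ± 7.13 CPM per kilobase of exon, SD, n = 4), then Kcnh2 (18.6 ± 3.48), Kcnq1 (10.7 ± 1.12), Kcna5 (8.35 ± 1.40), Kcnd2 (4.60 ± 1.25), Kcnv2 (2.41 ± 0.647), Kcnd3 (1.78 ± 0.249), Kcne1 (1.47 ± 1.01) and Kcna4 (0.201 ± 0.0881). Among neighbours in that order, Kcnip2 and Kcnh2, Kcnh2 and Kcnq1, Kcna5 and Kcnd2, and Kcne1 and Kcna4 did not overlap between hearts. Kcnq1 with Kcna5, Kcnd2 with Kcnv2, Kcnv2 with Kcnd3 and Kcnd3 with Kcne1 did. In HVCN1 null hearts Kcna5 (13.2 ± 1.90) stood above Kcnq1 (11.8 ± 1.80) with overlapping values. With the length of the longest transcript in place of all exons, Kcnq1 stood first of the pair in both genotypes. In HVCN1 null hearts Kcne1 stood above Kcnv2 and Kcnd3 by either length, with overlapping values. Kcnd3 stood above Kcnv2 there by the longest transcript only.

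**Figure D4:**
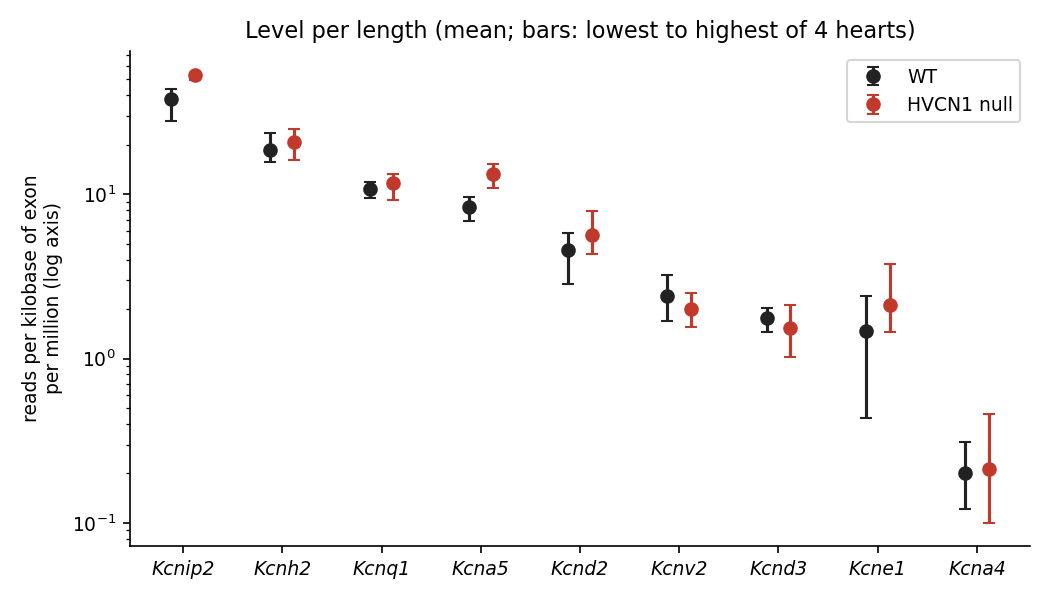
Mean level per length (log axis) of each gene in WT and HVCN1 null hearts, with bars from the lowest to the highest of 4 hearts. Kcnip2 is the highest in both genotypes and Kcna4, at 0.201 in WT hearts, the lowest.

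Ratios between subunits that assemble together, or carry currents side by side, were compared within each heart, where library scaling cancels. None of the 5 ratios given here differed between the genotypes by the two-sided exact permutation test. Kcnip2 over Kcnd2 was 7.71, 7.42, 6.96 and 4.64 in HVCN1 null hearts and 10.3, 5.81, 3.22 and 5.41 in WT hearts (exact p = 0.629). Kcnd3 over Kcnd2 had the smallest p of the 5 (exact p = 0.229), with a mean log2 difference of -0.55. Kcne1 over Kcnq1 was 0.0338 to 0.166 in WT hearts and 0.0940 to 0.224 in HVCN1 null hearts (exact p = 0.429). The ratios Kcna4 over Kcnd2 (exact p = 0.514) and Kcna5 over Kcnd2 (exact p = 0.400) overlapped as well.

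The rest of the Kv family gave the setting. Of 54 listed genes for pore-forming, modifier and accessory subunits, 32 were tested and none was a DEG, while 1.14% of all tested genes were. Of the 32, 9 had an unadjusted edgeR p under 0.05, 7 above 0 and 2 below, beside 11.0% of all tested genes under that p. The 23 tested genes outside the 9 members had 17 log2 fold changes above 0 and 6 below, with a median of 0.19. Over all 14796 tested genes, 7002 were above 0 and the median was -0.01. Of the 23, 7 were at an unadjusted p under 0.05, among them Kcna6 (0.84, SE 0.24), Kcne3 (0.94, SE 0.37), Kcnq5 (0.83, SE 0.35), Kcna2 (0.62, SE 0.20) and Kcna7 (-0.45, SE 0.15), with edgeR adjusted p from 0.181 to 0.423. Kcna6, Kcne3 and Kcnq5 lay wholly above WT, as did 3.88% of all tested genes, and Kcna7 lay wholly below (7.14% did not overlap in either direction). Kcnq5 and Kcne3 were scarce, at 4 to 12 and 5 to 21 counts per heart.

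Kcna6 lies beside Kcna5 on chromosome 6, with Kcna1 between them. Kcna6 had 2.98 to 4.52 CPM in HVCN1 null hearts and 1.37 to 2.86 CPM in WT hearts, and DESeq2 called it (adjusted p = 0.0396). Kcna1, at 3.63 ± 1.47 and 2.26 ± 0.765 CPM (SD, n = 4 each), overlapped. None of the 8 regulators listed (Irx3, Irx4, Irx5, Akap9, Dlg1, Pias3, Nedd4l, Rnf207) was below an unadjusted p of 0.05, and their median log2 fold change was 0.01. The 10 most abundant Kv genes by CPM included 7 of the 9 (Kcnip2, Kcnh2, Kcnq1, Kcna5, Kcnd2, Kcnd3 and Kcnv2) and Kcng2 (136 CPM over the 8 hearts).

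**Figure D5:**
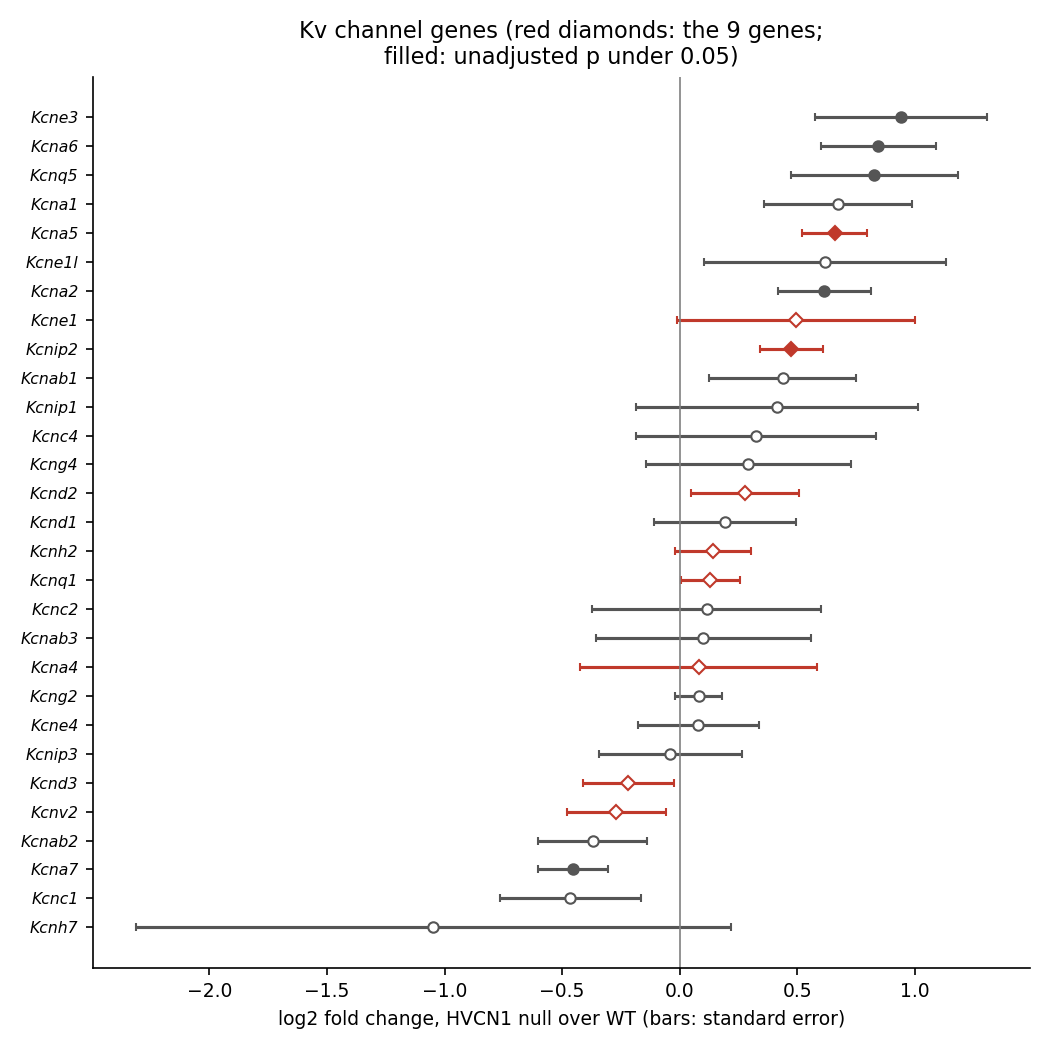
Log2 fold change of HVCN1 null over WT with its standard error for the 29 tested Kv channel genes shown, in order of size, red diamonds for the 9 genes and filled symbols for an unadjusted p under 0.05. Of the 7 filled symbols, 6 lie to the right of 0 and 1 to the left.

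The gene whose log2 CPM most resembled Kcna5 over the 8 hearts was Rragc (Pearson r = 0.986), followed by Fam122a and Pald1. For Kcnip2 these were Rbm4b (r = 0.967), Fam181b and Hgs, and for Kcne1 Kmt5c (r = 0.987), Isyna1 and Ptms. Kcnv2 was closest to Rsad1 (r = 0.972), Kcnh2 to Slc25a23 (r = 0.974), Kcnq1 to Tbrg1 (r = 0.962), Kcnd3 to Zfyve9 (r = 0.987), Kcnd2 to Ctnna1 (r = 0.940) and Kcna4 to Ube2v1 (r = 0.948). These are descriptions over 8 hearts that differ in genotype and atrial content, picked as the highest of all tested genes. Among the members themselves, Kcnq1 with Kcnh2 (r = 0.880) and Kcna5 with Kcnip2 (r = 0.872) were the most alike, and Kcne1 with Kcnv2 the least (r = -0.79).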

How the data were processed

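RNA-seq of heart samples from 4 HVCN1 null and 4 WT mice was analysed. Per the paper and labels, poly-A libraries were sequenced in pairs, STAR aligned the reads, and featureCounts assigned them to Ensembl genes. The authors deposited the resulting whole-number counts, not normalized. The labels name mm10 and GRCm38 while the paper's text names a human build, and the gene identifiers are mouse, so symbols, positions and exon lengths came from GENCODE M21 on GRCm38 (99.5% of genes matched).

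Counts were tested with edgeR 4.0.16 in R 4.3.3 by the quasi-likelihood test, with TMM scaling, filterByExpr and Benjamini-Hochberg adjustment over the 14796 tested genes. CPM was computed with TMM factors from all genes. An earlier version used factors from the tested genes. The choice was made after values had been seen, to follow an earlier processing of these data, and moved no scale factor by more than 0.85% relative to the others. With the earlier factors, 7.06% of tested genes did not overlap. The fits did not change. The alternatives were DESeq2 1.42.0, limma 3.58.1 (voom), edgeR's exact test, other scalings and filters, a Myl7 covariate and leaving out hearts. The atrial-rich hearts alone, these hearts as a block, and the tested-gene factors were added after seeing the data, and the wider selectivity filter pattern was set after a narrower one had missed Kcnd2, Kcnd3 and Kcnq1. Tests were also run on simulated counts. These held no atrial difference between hearts, and the outcome is not given here.

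The members and gene lists were chosen with earlier results of these data known. Named genes are the 9 members, Hvcn1, the atrial markers, Kv genes that were DEGs, at an unadjusted p under 0.05 or among the 10 most abundant, and the 3 genes most correlated with each member. Kcnip4, Kcnh7 and Kcna1, and the single smooth muscle genes, were picked with their values in view. Some listed genes and 1 ratio are not reported here; counts and medians over lists include those genes. The study gives 4 mice per group, and no batch is named. Python 3.11.15 made tables and plots.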

Additional observations from a re-analysis of the deposited data

Results flagged for a closer look

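The spread within each genotype was examined for the 9 genes in both groups, 18 groups of 4 hearts, where chance flags about 1 in 20. Of these, 2 were flagged by the gap between the extreme heart and its nearest neighbour over the range of the group. For Kcne1 in HVCN1 null hearts the value was 0.905, since heart 3 had 12.1 CPM and the next heart 5.38 CPM. For Kcnip2 in HVCN1 null hearts it was 0.900, since heart 1 had 173 CPM and the next heart 187 CPM. The Kcnip2 value depends on the scaling chosen: with TMM factors from the tested genes it was 0.803, which is not flagged, while that of Kcne1 stayed at 0.905. No cause was tested.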

How the results depend on the processing

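The number of DEGs was 169, and 466 with DESeq2, 367 with edgeR's exact test, 71 without the atrial-rich hearts, 24 in the atrial-rich hearts alone, and 71 to 152 with 1 heart left out (71 without WT heart 6). The count of the 9 genes that were DEGs was 0, and 1 with RLE scaling, no filter or edgeR's exact test (Kcna5), 2 with DESeq2 (Kcna5 and Kcnip2), and 0 to 1 with 1 heart left out (Kcna5 without HVCN1 null heart 4). The count of other Kv genes was 0, and 1 with no filter and without the atrial-rich hearts (Kcnip4), 1 with DESeq2 (Kcna6), and 0 to 1 with 1 heart left out (Kcnip4 without HVCN1 null heart 2). Members without overlap numbered 2, and 5 without the atrial-rich hearts. Kcna4 changed sign: its log2 fold change of 0.08 was -0.061 with voom, -0.41 without the atrial-rich hearts, -0.077 with the Myl7 covariate and -0.65 to 0.38 with 1 heart left out. Its difference in mean CPM was 0.0536, and -0.089 on the log2 scale, -0.217 without the atrial-rich hearts and -0.350 to 0.234 with 1 heart left out. With 1 heart left out, the log2 ratio of Kcnip2 over Kcnd2 ran from -0.067 to 0.49 and that of Kcna4 over Kcnd2 from -0.92 to 0.047. The other 8 members kept their sign in each of 19 alternatives, but with 1 heart left out the log2 fold change ran from 0.065 to 0.42 for Kcnd2, 0.066 to 0.23 for Kcnq1, 0.032 to 0.29 for Kcnh2, -0.42 to -0.072 for Kcnd3 and -0.40 to -0.087 for Kcnv2. The cause of these changes was not tested. Using TMM factors from the tested genes for CPM left the members without overlap at 2, but removed the flag of Kcnip2 given above. The DEG calls could not change, because the fits already used such factors. The exact permutation p of Kcna5 was 0.0571 without any 1 of the WT hearts and 0.0286 without any 1 of the HVCN1 null hearts. In each case the groups still did not overlap. The smallest p of this test for 2 against 2 is 0.333. Kcna4 had 15 to 83 counts per heart, the fewest of the 9 genes. No paired analysis was possible because replicate numbers are not shared between the genotypes.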

Other observations

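Kcnip4 (KChIP4, chr5:48389502-49524907 in GRCm38), a relative of Kcnip2 and like it a partner of Kv4 channels, was removed by the filter on low counts and was named after its values were seen. It gave 650, 0, 465 and 621 counts in HVCN1 null hearts 1 to 4 and 0, 0, 1 and 6 counts in WT hearts 5 to 8. HVCN1 null heart 2 was at 0 like the WT hearts, so the groups overlapped, and the exact permutation p of the difference in mean CPM was 0.143. With no filter, edgeR's quasi-likelihood test gave an adjusted p of 0.00579, and over the leave-one-out fits that tested it the adjusted p ran from 3.85e-05 to 0.139. Of its 3627 exon bases, 267 are shared with other genes.

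Kcnh7 (ERG3), a relative of Kcnh2, followed the atrial-rich hearts. It gave 26, 19, 30 and 80 counts in HVCN1 null hearts 2 and 3 and WT hearts 5 and 7, and 0, 1, 0 and 0 counts in HVCN1 null hearts 1 and 4 and WT hearts 6 and 8. It was chosen after its values were seen, and its difference between genotypes was -1.05 on the log2 scale (SE 1.26, edgeR adjusted p = 0.875).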
